A study of Mus musculus with 24 samples.

Results

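The genes described here are 41 imprinted genes of the mouse, that is, genes of which the maternal or the paternal copy is silenced according to the parent it came from. They were chosen by symbol from a list of known imprinted genes, without Igf2 and H19, and all 41 were among the 22943 genes of the deposited expression table. They fall into 18 imprinted clusters. From textbook knowledge 21 are expressed from the paternal copy and 19 from the maternal copy, and Gnas gives transcripts from both. For some, such as Ube3a, expression from a single copy holds only in certain cell types. The table does not separate the parental copies, so the loss or gain of imprinting itself was not measured.

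Total RNA of uteri was sequenced in 24 libraries from 21-day-old female mice of strain C57bl/6, in a study of what the chromatin protein CTCF does for the response of the uterus to progesterone. Floxed controls (Ctcf-f/f) were littermates without Cre, and knockouts (PgreCre+;Ctcf-f/f, cKO) carried the same floxed alleles with Cre driven by the progesterone receptor gene. Mice received 0.5 mg progesterone in 0.05 ml sesame oil under the skin, or the oil alone as vehicle, and were treated for 6 h. There were 8 floxed and 8 knockout libraries after vehicle and 4 of each after progesterone. All groups carried floxed Ctcf, and the knockouts differed from them in the Cre allele and the loss of Ctcf together, which cannot be told apart here. Cells of the uterus that do not switch on the progesterone receptor gene keep Ctcf and stay in the tissue that was sequenced.

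Imprinted genes sit in clusters under the control of a differentially methylated region, at which 1 parental copy carries DNA methylation laid down in the germ line. At some clusters CTCF binds the unmethylated copy of such a region and separates enhancers from promoters, and at others an unmethylated promoter makes a long noncoding RNA that silences its neighbours on the same chromosome. Many imprinted genes act on growth: Grb10 and Igf2r restrain insulin-like signalling, Cdkn1c stops the cell cycle, and Plagl1 is a zinc finger transcription factor that acts on other imprinted genes.

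Promoter windows of some of the genes on which the results below turn are shown first. They show how different in base composition these start sites are. Each is a RefSeq window on GRCm38.p6, 5′ to 3′ on the strand of the gene, from 250 bases before the start to 50 after it. Capitals mark matches, on either strand, to a CTCF core motif (AGNNGGCNC) or to the motif of ZFP57 (TGCCGC), a protein that keeps germ-line methylation at imprinted regions. The Grb10 windows are chr11:12037371-12037670 with 45 CpG dinucleotides and chr11:12027922-12028221 with 9, both on the minus strand. The Igf2r window is chr17:12769657-12769956 on the minus strand with 34 CpG, and that of Airn, the noncoding RNA that starts inside Igf2r, is chr17:12741061-12741360 on the plus strand with 3. The Plagl1 window is chr10:13090582-13090881 on the plus strand with 26 CpG, and the first of 2 Meg3 windows is chr12:109540746-109541045 on the plus strand with 13. The second Meg3 window, with 1 CpG and neither motif, is not printed, nor are the windows of other called genes. Of those, the windows of Rian (0 CpG), Asb4 (6 and 8), Peg3 (13) and Ube3a (29) held neither motif. The Copg2 window and a Snrpn window held a ZFP57 match.
Grb10 CpG-rich window: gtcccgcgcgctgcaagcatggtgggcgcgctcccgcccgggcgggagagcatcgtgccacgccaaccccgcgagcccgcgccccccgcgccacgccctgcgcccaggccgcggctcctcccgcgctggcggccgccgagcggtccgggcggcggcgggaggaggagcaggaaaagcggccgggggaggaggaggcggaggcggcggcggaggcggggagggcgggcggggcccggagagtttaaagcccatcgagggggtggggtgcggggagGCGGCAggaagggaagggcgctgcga
Grb10 CpG-poor window: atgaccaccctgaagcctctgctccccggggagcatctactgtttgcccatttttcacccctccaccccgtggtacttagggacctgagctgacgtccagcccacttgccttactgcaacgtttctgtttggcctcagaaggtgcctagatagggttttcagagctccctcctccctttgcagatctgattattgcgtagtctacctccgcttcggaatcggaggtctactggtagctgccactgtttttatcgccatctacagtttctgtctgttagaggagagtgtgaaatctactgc
Igf2r window: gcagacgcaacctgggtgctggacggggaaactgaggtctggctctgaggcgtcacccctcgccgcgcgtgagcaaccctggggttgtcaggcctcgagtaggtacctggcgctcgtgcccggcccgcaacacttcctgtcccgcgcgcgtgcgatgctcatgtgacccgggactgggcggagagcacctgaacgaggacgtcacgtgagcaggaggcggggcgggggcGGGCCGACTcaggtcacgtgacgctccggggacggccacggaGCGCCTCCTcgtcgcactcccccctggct
Airn window: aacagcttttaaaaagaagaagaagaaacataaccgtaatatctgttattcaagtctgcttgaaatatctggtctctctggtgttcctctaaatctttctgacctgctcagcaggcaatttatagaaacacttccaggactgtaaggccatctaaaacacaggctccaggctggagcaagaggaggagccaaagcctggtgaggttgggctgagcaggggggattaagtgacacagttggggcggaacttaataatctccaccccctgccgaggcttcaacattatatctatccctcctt
Plagl1 window: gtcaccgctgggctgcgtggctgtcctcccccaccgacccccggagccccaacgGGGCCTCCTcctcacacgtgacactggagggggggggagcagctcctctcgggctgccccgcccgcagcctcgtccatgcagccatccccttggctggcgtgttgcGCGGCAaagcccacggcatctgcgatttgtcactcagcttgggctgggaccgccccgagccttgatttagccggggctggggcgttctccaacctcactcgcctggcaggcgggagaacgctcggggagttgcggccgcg
Meg3 first window: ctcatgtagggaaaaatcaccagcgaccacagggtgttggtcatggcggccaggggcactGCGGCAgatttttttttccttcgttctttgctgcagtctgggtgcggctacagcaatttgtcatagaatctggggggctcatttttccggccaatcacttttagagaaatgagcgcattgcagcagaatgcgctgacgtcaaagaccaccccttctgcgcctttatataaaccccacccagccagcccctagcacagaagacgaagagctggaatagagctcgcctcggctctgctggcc

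The Igf2r window held 2 matches to the CTCF core, at bases 230 to 238 and 272 to 280, and the Plagl1 window held 1, at bases 55 to 63. A ZFP57 match stood at bases 161 to 166 of the Plagl1 window, 275 to 280 of the CpG-rich Grb10 window and 61 to 66 of the first Meg3 window. The Airn window and the CpG-poor Grb10 window held neither. RefSeq windows were found for 34 of the 41 genes, 50 windows in all. The CTCF core was present in 16 of the 50 (32%, in 11 genes), against 21.2% of all 32851 windows of this length. The ZFP57 motif was present in 10 of the 50 (20%, in 9 genes), against 11.6% of all windows. The imprinted windows also held more CpG, with a median of 15 against 7, and both motif shares were not compared at matched composition. A match is a string of letters in the genome sequence and not a measured binding site.

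Ctcf RNA separated the genotypes. It was 23.0 to 30.6 RPKM (reads by gene length and library size, after the authors' batch correction) in the vehicle-treated floxed libraries and 10.1 to 13.1 in the vehicle-treated knockouts. After progesterone it was 25.1 to 27.5 in floxed and 9.04 to 10.9 in knockout libraries. Depth, estimated from the smallest step of the values, was 29.8 to 100.6 M reads. By the label for library batches, 16 libraries (4 of each group) form a mixed batch and 8 vehicle libraries (4 of each genotype) a vehicle-only batch. In 5 libraries (floxed vehicle 3, knockout vehicle 9 and 12, floxed progesterone 7, knockout progesterone 8) markers of oviduct or squamous epithelium stood apart from the other libraries of their group, and results that change without them are given both ways. The uterine markers were present in every group, except that the epithelial marker Foxa2 averaged under 1 RPKM in both knockout groups. Summed RPKM of 6 leukocyte markers was 47.1 to 69.8 in floxed and 90.9 to 149 in knockout vehicle libraries, and 47.9 to 76.0 in floxed and 75.1 to 164 in knockout libraries after progesterone. Cd3e was under 1 RPKM in every group. Summed RPKM of 6 epithelial markers was 275 to 397 in floxed and 188 to 297 in knockout vehicle libraries, and 204 to 357 in floxed and 224 to 365 in knockout libraries after progesterone. Under vehicle 5 endothelial markers summed to 155 to 193 in floxed and 190 to 276 in knockout libraries, and 5 skeletal muscle markers to 53.2 to 119.5 and 18.5 to 59.6. The 4 mesothelial markers summed to 46.4 to 77.0 in floxed and 60.2 to 89.2 in knockout vehicle libraries, and to 31.8 to 49.8 and 47.4 to 61.2 after progesterone. The 5 adipose tissue markers differed widely between libraries of a group. They summed to 2.33 to 639 in floxed and 25.5 to 721 in knockout vehicle libraries. After progesterone their sums were 114 to 479 in floxed and 55.2 to 296 in knockout libraries. The gland marker Foxa2 averaged 3.20 RPKM in the floxed and 0.532 in the knockout vehicle group. The part of these marker differences in the results below was not tested, and in whole tissue fewer cells of a type cannot be told apart from less RNA per cell.

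Of the 41 genes, 31 reached 1 RPKM in at least 4 libraries and were tested, 14 of them paternally and 16 maternally expressed, with Gnas. A group mean of at least 10 RPKM was reached by 18. Gnas, which encodes the stimulatory G-protein alpha subunit among other products, was the most abundant, with a mean of 77.2 ± 2.8 RPKM (SD, n = 8) in floxed vehicle uteri. Grb10 and the cell cycle inhibitor Cdkn1c came next. The 10 genes that were not tested (Zdbf2, Sfmbt2, Usp29, Magel2, Kcnq1ot1, Phlda2, Ascl2, Rasgrf1, Rtl1 and Kcnk9) stayed low. Their highest single value was 1.52 RPKM, in the Polycomb-type gene Sfmbt2, while the potassium channel gene Kcnk9 never exceeded 0.00584 RPKM and the brain-expressed Magel2 never exceeded 0.0388.

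**Figure D1:**
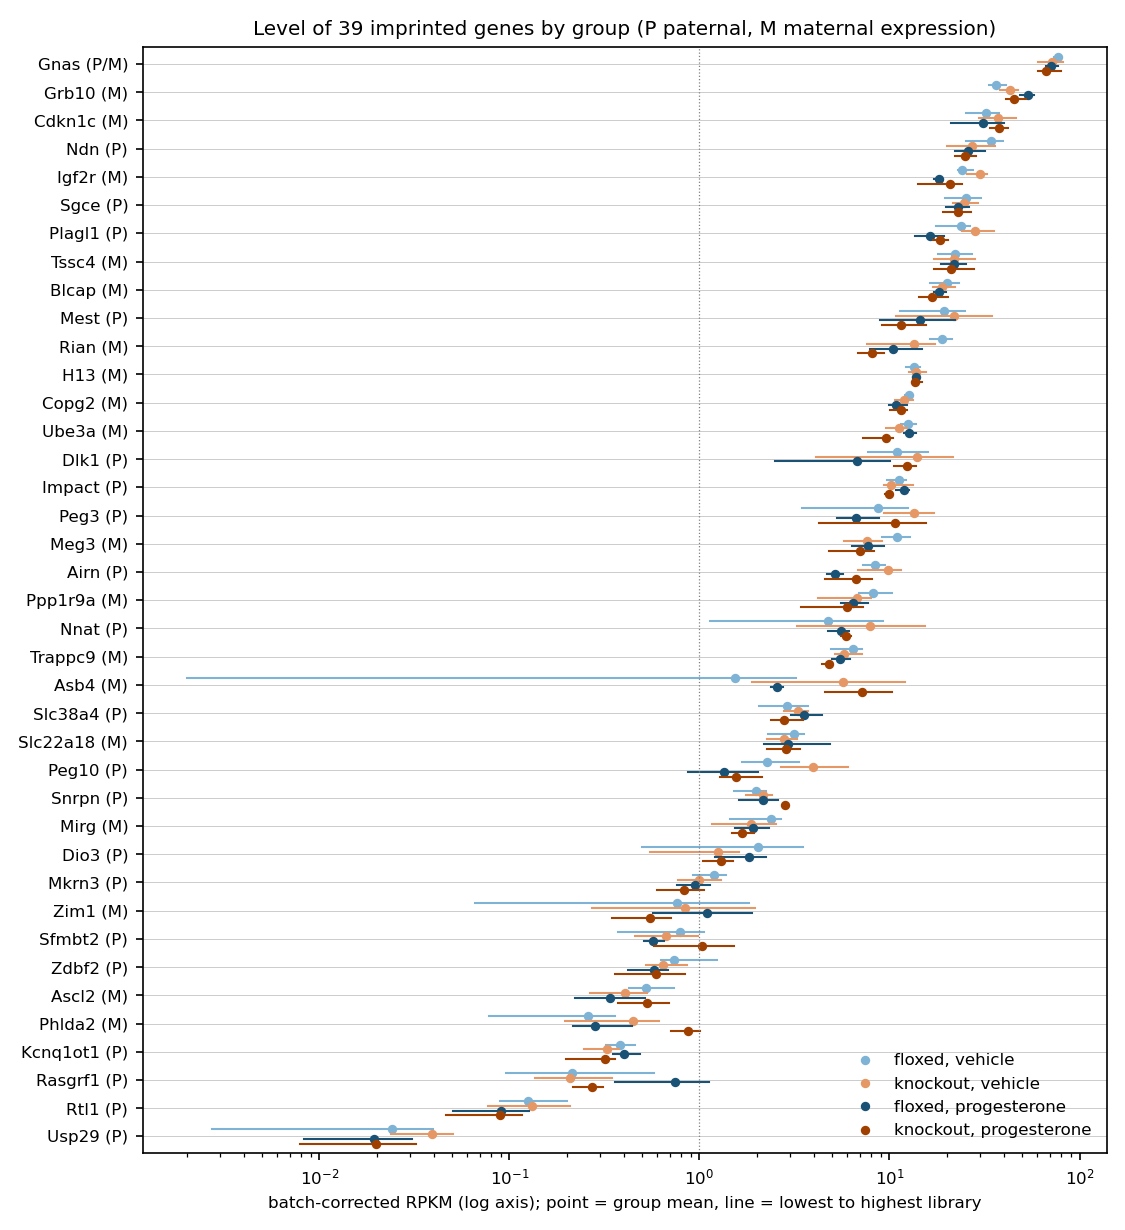
Batch-corrected RPKM on a log axis for 39 imprinted genes, ordered by their mean over all libraries. Points are group means and lines run from the lowest to the highest library (lines reaching below 0.002 are drawn from 0.002), Magel2, whose knockout progesterone mean lies below 0, and Kcnk9, whose values lie at or near 0, are not drawn, and the dotted line marks 1 RPKM.

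Between genotypes after vehicle, 7 of the 31 tested genes differed: Peg10, Asb4, Peg3, Igf2r and Grb10 were higher in the knockout and the noncoding RNAs Meg3 and Rian were lower. A gene was called at a Benjamini-Hochberg adjusted p below 0.05 over all 14284 tested genes of the table. The 5 higher and 2 lower genes stand beside a background of 13.1% called higher and 11.5% called lower over the table. The higher genes came from either parental copy: 2 paternally expressed genes (Peg10, Peg3) and 3 maternally expressed genes (Asb4, Igf2r, Grb10) were higher, and both lower genes are maternally expressed. The median log2 fold change was -0.01 over the 31 genes and -0.01 over all tested genes.

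After progesterone 3 of the 31 differed between genotypes. Snrpn was higher in the knockout, against a background of 12.3% called higher, and Ube3a and Grb10 were lower, against 7.06% called lower. The median log2 fold change was -0.06 over the 31 genes and 0.03 over all tested genes. The 2 genotype comparisons use different libraries, while each comparison of treatments shares libraries with them.

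**Figure D2:**
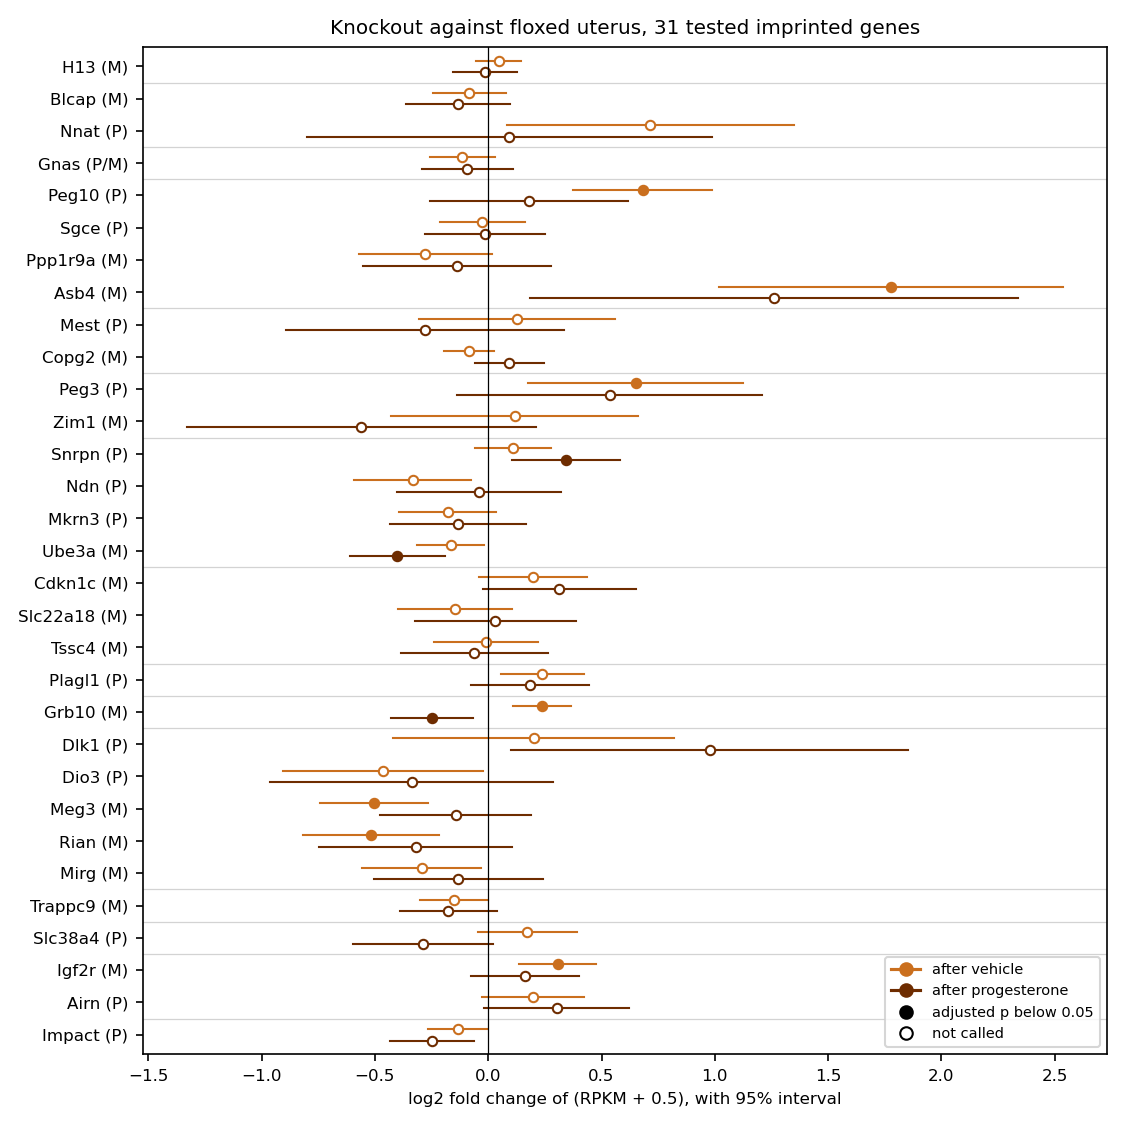
Log2 fold change of RPKM + 0.5, knockout against floxed, for the 31 tested genes grouped by cluster (grey lines), with 95% intervals; orange is after vehicle, brown after progesterone, and filled points passed an adjusted p of 0.05. Grb10 has filled points on both sides of 0, at 0.24 and -0.25.

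Progesterone against vehicle changed 8 of the 31 genes in the floxed uterus. Grb10 rose, beside a background of 7.84% called higher, and Plagl1, Airn, Rian, Igf2r, Copg2, Meg3 and Peg10 fell, beside 15.1% called lower. In the knockout 5 fell (Peg10, Plagl1, Igf2r, Airn and Rian), beside 4.66% called lower, and none rose, beside 4.00% called higher. No gene other than these passed, and at an unadjusted p below 0.05 there were 10 genes in the floxed and 9 in the knockout uterus. The median log2 fold change over the 31 genes was -0.15 in floxed and -0.13 in knockout uteri, against -0.06 and -0.02 over all tested genes. The estimate was negative for 22 of 31 genes in the floxed and 25 of 31 in the knockout uterus. The matching shares over all tested genes, for sign and for unadjusted p, were not taken. Whether these counts set the imprinted genes apart from the table was therefore not tested. The difference between the responses of the genotypes passed for 1 gene, Grb10, beside a background of 2.49% called over the table.

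**Figure D3:**
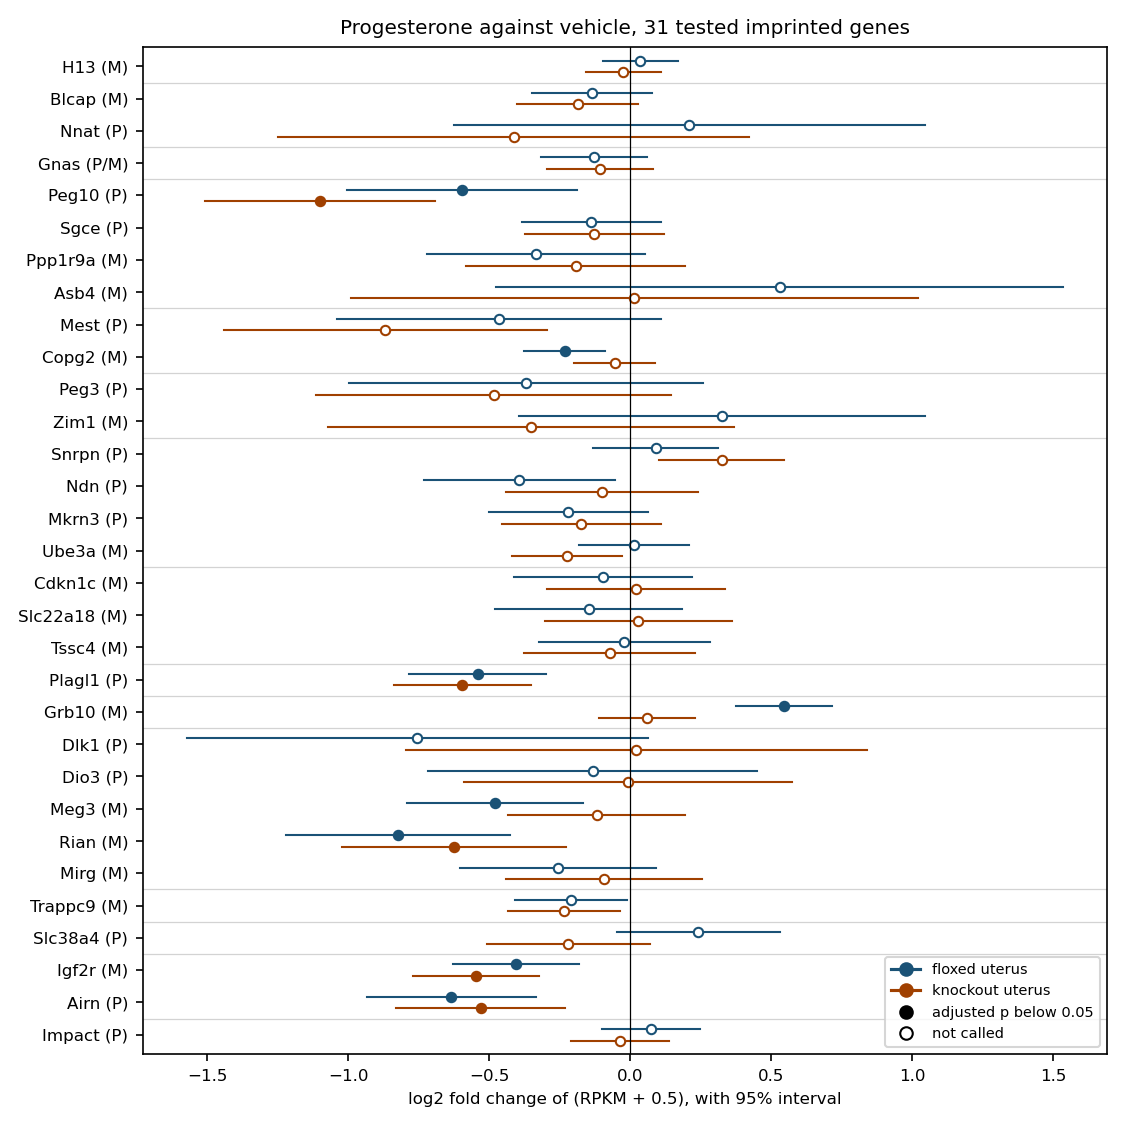
Log2 fold change of RPKM + 0.5, progesterone against vehicle, for the 31 tested genes with 95% intervals; blue is the floxed and brown the knockout uterus, and filled points passed an adjusted p of 0.05. Grb10 stands to the right at 0.55 in the floxed uterus and near 0 at 0.06 in the knockout, while Plagl1, Igf2r and Airn lie to the left in both.

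Grb10 encodes an adaptor that binds the insulin and IGF receptors and dampens their signal, and it is made from the maternal copy in most tissues and from the paternal copy in neurons (GRCm38 chr11:11930508-12038683, minus strand). In floxed vehicle uteri it was lowest at 33.4, had a median of 36.4 and was highest at 41.1 RPKM. In knockout vehicle uteri it ran from 38.2 over a median of 43.0 to 47.3. After progesterone the 4 floxed libraries had 48.8, 57.9, 50.6 and 56.7 RPKM. The 4 knockout libraries after progesterone had 52.0, 46.0, 41.2 and 41.1. Every floxed library after progesterone lay above every floxed vehicle library, while the knockout libraries after progesterone overlapped those after vehicle. On the log2 scale Grb10 rose by 0.55 (SE 0.082, adjusted p = 4.5e-05) in the floxed uterus, and in the knockout the change was 0.06 (SE 0.082, adjusted p = 0.73). The difference of the 2 responses was -0.49 (SE 0.11, adjusted p = 0.013). Between genotypes it was 0.24 higher in the knockout after vehicle (adjusted p = 0.0059) and 0.25 lower after progesterone (log2 fold change -0.25, adjusted p = 0.049).

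The rise of Grb10 in the floxed uterus passed in every alternative run, and in the mixed batch alone it was 0.55 (adjusted p = 0.00052). The difference of the responses passed on leaving out any 1 library. It did not pass in the mixed batch alone (-0.50, adjusted p = 0.051) nor without the 5 libraries with oviduct or squamous markers (-0.43, adjusted p = 0.107). It was also lost with a replicate block, a fit that joins libraries of equal number (-0.36, adjusted p = 0.283). Both genotype calls of Grb10 were lost with that block (0.20 after vehicle, -0.16 after progesterone). Calls of other genes lost with it are listed with the processing results. The genotype difference after vehicle did not pass without those 5 libraries (0.20, adjusted p = 0.053) nor in either batch alone (0.25 in the mixed and 0.23 in the vehicle-only batch). The call after progesterone was lost without the 5 libraries (-0.23, adjusted p = 0.137), in the mixed batch alone (-0.25, adjusted p = 0.061), after quantile normalization (-0.21, adjusted p = 0.134) and with either other filter on low values. It was also lost on leaving out any of 17 of the 24, with adjusted p up to 0.146 without floxed progesterone 2, and was kept only without knockout progesterone 4, knockout vehicle 10, 12 or 13, floxed progesterone 1, or floxed vehicle 7 or 12.

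**Figure D4:**
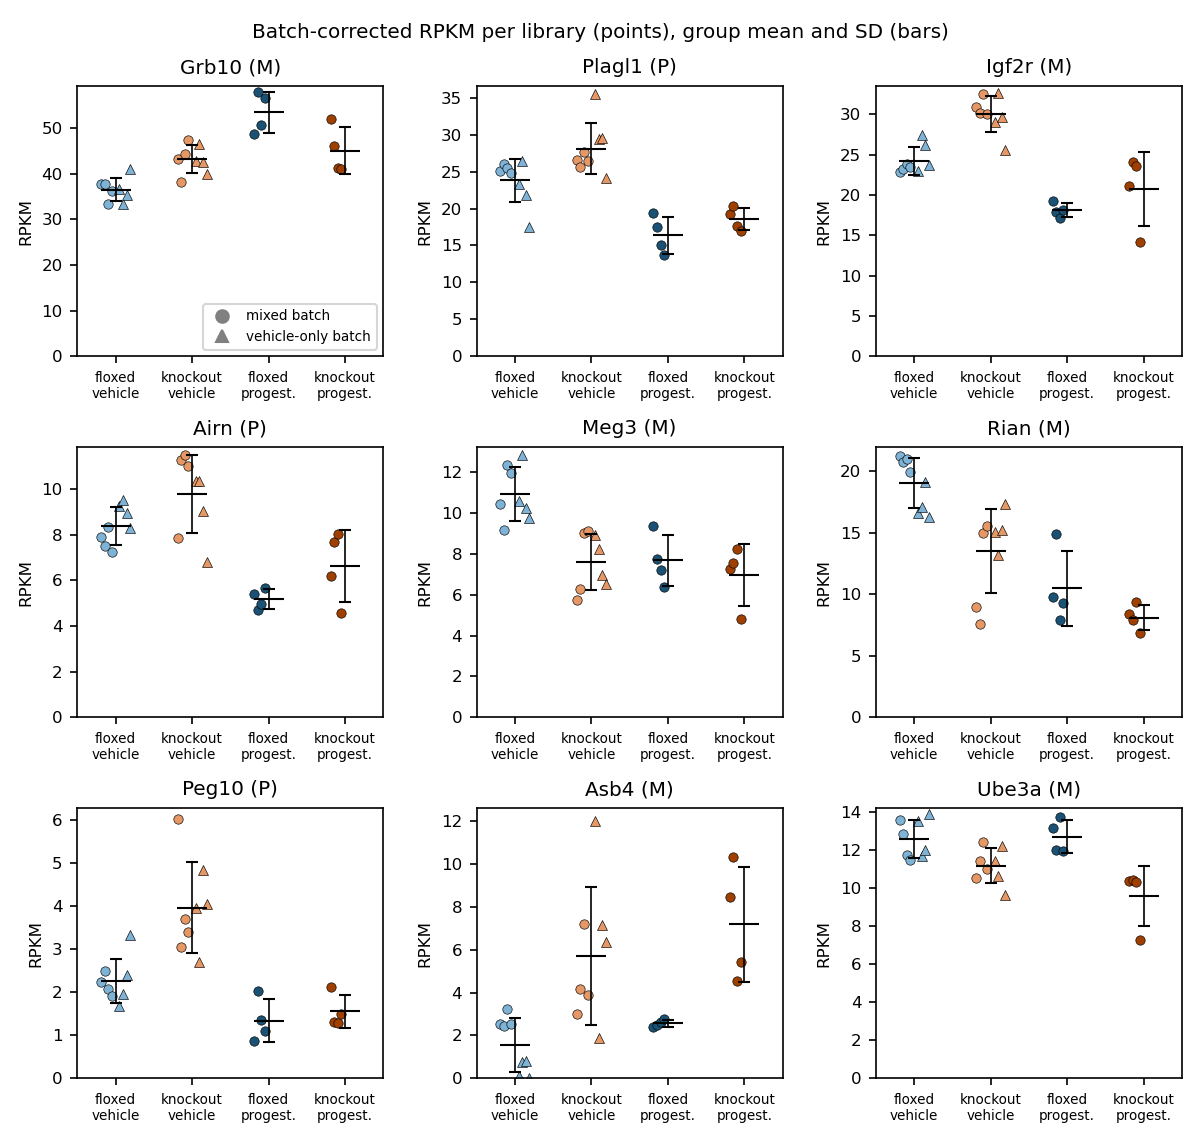
Batch-corrected RPKM of 9 imprinted genes in each library (circles mixed batch, triangles vehicle-only batch), with the group mean and SD as black bars. P and M mark the parental copy assigned from textbook knowledge. Ube3a, marked M, is made from both copies in most cells other than neurons. The floxed libraries of Grb10 after progesterone (48.8 to 57.9) lie above all other floxed ones, and the floxed triangles of Asb4 lie near 0.

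Igf2r and Airn overlap on opposite strands over 28354 bases of chromosome 17. Igf2r encodes the receptor that takes up and degrades IGF2 and is made from the maternal copy, and Airn is the paternal noncoding RNA whose transcription silences Igf2r on that copy. Igf2r had 22.8 to 27.5 RPKM (median 23.6) in floxed and 25.5 to 32.6 (median 30.1) in knockout vehicle uteri. After progesterone the floxed libraries had 19.2, 18.0, 17.2 and 18.1 RPKM, and the knockout libraries 21.1, 24.1, 23.7 and 14.1. All progesterone libraries lay below all vehicle libraries of the same genotype. The fall of Igf2r was -0.40 on the log2 scale (SE 0.11, adjusted p = 0.0093) in the floxed and -0.55 (SE 0.11, adjusted p = 0.0024) in the knockout uterus. Under vehicle it was 0.31 higher in the knockout (SE 0.082, adjusted p = 0.0076), a difference of 0.40 in the mixed batch (adjusted p = 0.033) and 0.21 in the vehicle-only batch (adjusted p = 0.28).

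Airn moved the same way as Igf2r after progesterone. It had 7.24 to 9.53 RPKM (median 8.31) in floxed and 6.81 to 11.5 (median 10.3) in knockout vehicle uteri. The floxed libraries after progesterone had 5.40, 4.69, 4.96 and 5.67, all below the floxed vehicle libraries. The knockout libraries after progesterone had 6.21, 7.69, 8.04 and 4.58, and these overlapped the vehicle libraries. The fall of Airn was -0.63 (SE 0.14, adjusted p = 0.0029) in the floxed and -0.53 (SE 0.14, adjusted p = 0.024) in the knockout uterus. The call in the knockout was lost without knockout progesterone 4 or 8 or knockout vehicle 10, 11b or 12 (adjusted p up to 0.114), and without the 5 libraries with oviduct or squamous markers (-0.40, adjusted p = 0.209). How the counting treated strand is not stated, so reads of Airn and of Igf2r cannot be told apart where the 2 overlap.

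Slc22a3, an organic cation transporter gene of the same cluster that is imprinted in the placenta, was among 36 further imprinted genes listed for comparison. It averaged 26.3 ± 4.1 RPKM (SD, n = 8) in floxed vehicle and 8.66 ± 3.0 (SD, n = 4) in floxed progesterone uteri. Its log2 fold change after progesterone was -1.60 in the floxed and -0.80 in the knockout uterus (adjusted p = 0.0088 for the latter). The fall of Slc22a3 was in the same direction as that of Igf2r and Airn in both genotypes.

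Plagl1 fell after progesterone in both genotypes. It is a zinc finger factor made from the paternal copy. It had 17.5 to 26.4 RPKM (median 25.0) in floxed and 24.2 to 35.5 (median 27.1) in knockout vehicle uteri. The floxed libraries after progesterone had 19.3, 17.5, 15.0 and 13.7 RPKM and the knockout libraries 19.2, 20.3, 17.7 and 17.0. The knockout groups did not overlap, and the floxed groups overlapped through 1 vehicle library, floxed vehicle 12 at 17.5. The log2 fold change was -0.54 (SE 0.12, adjusted p = 0.0018) in the floxed and -0.60 (SE 0.12, adjusted p = 0.0023) in the knockout uterus, and both passed in every alternative that could give them. The difference of the 2 responses was -0.05, with a 95% interval from -0.37 to 0.26. Between genotypes under vehicle Plagl1 was at 0.24 with an adjusted p of 0.053 and was not called. It passed on the linear scale (adjusted p = 0.037) and with a replicate block (0.42, adjusted p = 0.019). In neither batch alone did it pass (0.07 in the mixed and 0.41 in the vehicle-only batch).

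In the Dlk1-Meg3 cluster on chromosome 12 the paternal copy makes the protein-coding genes Dlk1, Rtl1 and Dio3, and the maternal copy makes the noncoding RNAs Meg3, Rian and Mirg, which carry small nucleolar RNAs and microRNAs. Meg3 had 9.18 to 12.8 RPKM (median 10.5) in floxed vehicle uteri. In knockout vehicle uteri it had 5.77 to 9.14 (median 7.61), so that all 8 knockout libraries lay below all 8 floxed ones. After progesterone it had 9.39, 7.77, 7.20 and 6.38 in floxed and 7.24, 7.57, 8.26 and 4.81 in knockout libraries, and these overlapped. Meg3 was lower in the knockout under vehicle (log2 fold change -0.50, SE 0.11, adjusted p = 0.0020), at -0.53 in the mixed and -0.48 in the vehicle-only batch (adjusted p = 0.054 there). It fell with progesterone in the floxed uterus (-0.48, adjusted p = 0.025), and this call was lost without floxed progesterone 7 or 9 or floxed vehicle 3 or 4 (adjusted p up to 0.0994) and without the 5 libraries with other markers (-0.42, adjusted p = 0.063).

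Rian lies downstream of Meg3. It had 16.3 to 21.2 RPKM (median 19.5) in floxed and 7.59 to 17.3 (median 15.0) in knockout vehicle uteri. The floxed libraries after progesterone had 9.81, 14.9, 7.87 and 9.29 RPKM, all below the floxed vehicle libraries, and the knockout libraries had 8.36, 7.86, 9.33 and 6.82. Under vehicle Rian was at -0.52 in the knockout (SE 0.15, adjusted p = 0.011). That difference was -0.85 in the mixed batch (adjusted p = 0.010) and -0.18 in the vehicle-only batch (adjusted p = 0.37). The 2 lowest vehicle libraries, knockout vehicle 9 and 10 at 8.98 and 7.59, are both of the mixed batch. The fall of Rian with progesterone was -0.82 in the floxed uterus (SE 0.19, adjusted p = 0.0035), and this passed in every alternative that could give it. In the knockout it was -0.63 (adjusted p = 0.045). That call was lost on leaving out any of 17 of the 24 libraries (adjusted p up to 0.130) and kept without knockout progesterone 6, knockout vehicle 9, 10 or 13, or floxed progesterone 1, 2 or 7. In the mixed batch alone it was -0.46 (adjusted p = 0.199), and without the 5 libraries with other markers -0.59 (adjusted p = 0.185). It was also lost without a filter and on the linear scale.

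The other genes of the cluster were not called. Mirg, the third noncoding RNA, was at -0.29 in the knockout under vehicle (adjusted p = 0.098). Dlk1, a membrane-bound ligand of the Notch type that is found in progenitor cells, ran from 7.70 to 16.0 RPKM in floxed and from 4.11 to 21.5 in knockout vehicle libraries, the wider range lying in the knockout. After progesterone it had 10.1, 8.81, 5.48 and 2.50 in floxed and 12.5, 12.4, 13.9 and 10.5 in knockout libraries. Those groups did not overlap, but at a log2 fold change of 0.98 with an SE of 0.42 the adjusted p was 0.11. Under vehicle the Dlk1 estimate had opposite signs in the batches, at -0.41 in the mixed batch (adjusted p = 0.57) and 0.81 in the vehicle-only batch (adjusted p = 0.022). Dio3, the enzyme that inactivates thyroid hormone, was at -0.47 under vehicle (adjusted p = 0.12), and Rtl1 never exceeded 0.208 RPKM.

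The Peg10-Sgce cluster on chromosome 6 held the gene with the largest fitted genotype difference of the 31, Asb4, which encodes a subunit of a ubiquitin ligase and is made from the maternal copy. In the mixed batch the floxed vehicle libraries had 2.52, 2.42, 3.23 and 2.55 RPKM and the knockout vehicle libraries 3.01, 4.18, 7.22 and 3.89. In the vehicle-only batch the floxed libraries had 0.0771, 0.734, 0.786 and -0.00744 and the knockout libraries 12, 1.88, 7.17 and 6.35. Knockout lay above floxed in the vehicle-only batch without overlap, and in the mixed batch with an overlap at the library floxed vehicle 3. The fitted log2 fold change of Asb4 was 1.78 (SE 0.37, adjusted p = 0.0009), made up of 0.62 in the mixed batch (adjusted p = 0.083) and 2.94 in the vehicle-only batch (adjusted p = 0.0080). The batch correction is an added constant per gene and batch, and a value near or below 0 makes a fold change depend on it, so the size of this difference is uncertain. After progesterone, where all libraries are of the mixed batch, the floxed libraries had 2.38, 2.49, 2.62 and 2.76 and the knockout libraries 8.45, 10.3, 4.55 and 5.41, with no overlap. That difference was 1.26 (SE 0.52, adjusted p = 0.093) with all 24 libraries in the fit and passed in the mixed batch alone (adjusted p = 0.0012).

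Peg10 is a gene derived from a retrotransposon that the placenta needs, and it is made from the paternal copy. It had 1.67 to 3.34 RPKM (median 2.16) in floxed and 2.7 to 6.03 (median 3.83) in knockout vehicle uteri. After progesterone the floxed libraries had 0.874, 2.04, 1.36 and 1.09, and the knockout libraries 2.12, 1.31, 1.29 and 1.5. Every knockout library after progesterone was below every knockout vehicle library, and the progesterone groups of the 2 genotypes overlapped. Peg10 was higher in the knockout by 0.68 under vehicle (SE 0.15, adjusted p = 0.0015), at 0.72 in the mixed and 0.64 in the vehicle-only batch (adjusted p = 0.116 there). It fell with progesterone in the knockout (-1.10, SE 0.20, adjusted p = 0.0010) and in the floxed uterus (-0.60, SE 0.20, adjusted p = 0.031). The call in the floxed uterus was lost without floxed progesterone 1, 7 or 9 or floxed vehicle 1b or 2 (adjusted p up to 0.113), after quantile normalization (-0.43, adjusted p = 0.160), on the linear scale, and without the 5 libraries with other markers (-0.58, adjusted p = 0.0998). The difference of the responses was -0.50 (SE 0.26, adjusted p = 0.39).

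Sgce, which encodes epsilon-sarcoglycan and starts next to Peg10 on the opposite strand, did not follow it. Sgce averaged 25.4 ± 3.7 RPKM in floxed and 24.8 ± 2.4 in knockout vehicle uteri (SD, n = 8 each), which is -0.03 on the log2 scale (SE 0.09). Ppp1r9a, the gene of the scaffold protein neurabin, was at -0.28 (adjusted p = 0.16). The 2 paternally expressed genes of this cluster thus had estimates of 0.68 and -0.03 in the same libraries.

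Peg3 is a zinc finger gene made from the paternal copy. It had 3.45 to 12.6 RPKM (median 9.20) in floxed and 9.35 to 17.1 (median 13.4) in knockout vehicle uteri, with overlap. After progesterone it had 8.83, 6.44, 6.06 and 5.32 in floxed and 15.6, 13.2, 9.89 and 4.28 in knockout libraries. Peg3 was at 0.65 in the knockout under vehicle (SE 0.23, adjusted p = 0.041), a call that was lost without knockout vehicle 4, 5, 11a, 11b or 12 or floxed vehicle 1a, 1b, 2, 4 or 12 (adjusted p up to 0.0833). In the mixed batch it was 0.42 (adjusted p = 0.33) and in the vehicle-only batch 0.88 (adjusted p = 0.18), and it was not called without a filter. Zim1, a neighbouring zinc finger gene made from the maternal copy, was at 0.12 (adjusted p = 0.80), with 0.0657 to 1.96 RPKM over all libraries. Usp29, which shares its start region with Peg3, never exceeded 0.0506 RPKM.

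In the Snrpn-Ube3a cluster, the mouse counterpart of the Prader-Willi and Angelman region, both calls stood in the comparison of genotypes after progesterone. Ube3a, a ubiquitin ligase gene that is silenced on the paternal copy in neurons and made from both copies in most other cells, had 13.1, 12, 13.7 and 12 RPKM in floxed and 10.4, 10.4, 10.3 and 7.25 in knockout libraries after progesterone. The groups did not overlap, and knockout progesterone 8 lay furthest down. Ube3a was lower in the knockout (log2 fold change -0.40, SE 0.10, adjusted p = 0.0068). It passed on leaving out any 1 library, but not without the 5 libraries with other markers (-0.24, adjusted p = 0.0974). Under vehicle it was at -0.17 (adjusted p = 0.097), with 11.4 to 13.9 RPKM in floxed and 9.64 to 12.4 in knockout libraries.

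Snrpn, which encodes a small ribonucleoprotein and is made from the paternal copy, had 1.62, 2.03, 2.58 and 2.40 RPKM in floxed and 2.84, 2.79, 2.83 and 2.88 in knockout libraries after progesterone. Each knockout library was above each floxed one. Snrpn was higher by 0.34 (SE 0.11, adjusted p = 0.039). The call was lost without any 1 of the 4 knockout progesterone libraries or without floxed progesterone 1 or 2 (adjusted p up to 0.145), and after quantile normalization (0.19, adjusted p = 0.172). Snurf lies within Snrpn on the same strand over 9601 bases, so reads of the 2 may be shared. Ndn, a growth suppressor gene of the same cluster, averaged 34.1 ± 4.8 RPKM in floxed and 27.3 ± 6.3 in knockout vehicle uteri (SD, n = 8 each). Ndn was thus at -0.33 in the knockout (adjusted p = 0.053). In the mixed batch alone Ndn was at -0.55 (adjusted p = 0.013) and in the vehicle-only batch at -0.11 (adjusted p = 0.83). With progesterone in the floxed uterus Ndn was at -0.50 in the mixed batch alone (adjusted p = 0.016). That change was not called with all libraries in the fit. Mkrn3 was not called in any comparison.

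Copg2, which encodes a coat protein of transport vesicles, was the remaining gene with a call. It had 12 to 13.2 RPKM (median 12.8) in floxed vehicle uteri and 9.96, 10.4, 12.3 and 10.5 after progesterone. Of the 4 floxed progesterone libraries 3 lay below all floxed vehicle ones. The fall of Copg2 was -0.23 (SE 0.069, adjusted p = 0.018), and it was lost without floxed progesterone 1, 2 or 9 (adjusted p up to 0.0644). Mest, the paternally expressed gene whose end overlaps that of Copg2 over 912 bases on the opposite strand, had 9.18 to 15.5 RPKM in knockout progesterone and 10.9 to 34.5 in knockout vehicle libraries. Its log2 fold change in the knockout was -0.87 (SE 0.28, adjusted p = 0.053), and it was not called.

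The Kcnq1ot1-Cdkn1c cluster on chromosome 7, where the paternal noncoding RNA Kcnq1ot1 silences its neighbours, gave no call among its tested genes. Cdkn1c averaged 32.3 ± 3.7 RPKM in floxed and 37.2 ± 5.3 in knockout vehicle uteri (SD, n = 8 each), at 0.20 on the log2 scale (adjusted p = 0.24). Tssc4 stayed within 17.1 to 28.1 RPKM over all libraries and Slc22a18 within 2.19 to 4.84. Kcnq1ot1 was at 0.198 to 0.489 RPKM over all libraries and was not tested.

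Kcnq1, a potassium channel gene that overlaps Kcnq1ot1 on the opposite strand over 93092 bases, was called in the list of further imprinted genes. It averaged 9.27 ± 1.6 RPKM in floxed and 5.00 ± 0.95 in knockout vehicle uteri (SD, n = 8 each). After progesterone it averaged 10.8 ± 3.1 in floxed and 12.1 ± 2.1 in knockout uteri (SD, n = 4 each). The log2 fold change of Kcnq1 was -0.83 between genotypes under vehicle and 1.16 with progesterone in the knockout, and the difference of the responses was 1.01 (SE 0.22, adjusted p = 0.011).

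Among the genes below the expression filter, Phlda2 and Rasgrf1 had values that separated groups. Phlda2, a growth restrainer of the placenta from the Kcnq1ot1-Cdkn1c cluster, had 0.215, 0.216, 0.439 and 0.261 RPKM in floxed and 0.945, 1.00, 0.704 and 0.814 in knockout libraries after progesterone. Without a filter it was called in the knockout at 0.81 after progesterone (adjusted p = 0.00020) and at 0.32 after vehicle (adjusted p = 0.019). In the same fit Phlda2 was called higher with progesterone in the knockout (0.53, adjusted p = 0.011), and in the floxed uterus the change was 0.04 (adjusted p = 0.89). The difference of these responses was 0.49 and not called (adjusted p = 0.148). Rasgrf1, a Ras exchange factor gene made from the paternal copy, had 1.13, 0.360, 0.781 and 0.700 RPKM in floxed and 0.312, 0.253, 0.217 and 0.303 in knockout libraries after progesterone. Without a filter Rasgrf1 was called lower in the knockout after progesterone (-0.65, adjusted p = 0.0092) and higher with progesterone in the floxed uterus (0.78, adjusted p = 0.0012). Both genes lie near the smallest levels of the table, where the constant of the batch correction weighs most. The other 8 genes below the filter had no call in that fit.

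The remaining abundant genes were not called in any comparison, save in alternative runs, of which some are given here or with the processing results. Gnas averaged 77.2 ± 2.8 RPKM in floxed and 71.6 ± 7.9 in knockout vehicle uteri (SD, n = 8 each), at -0.11. H13, a signal peptide peptidase gene, was at 0.05 (SE 0.049), the smallest SE of the 31. Blcap was at -0.08 and Nnat, which lies inside Blcap on the opposite strand, was at 0.72 with an adjusted p of 0.093. Impact, a translation regulator gene, was at -0.13 after vehicle and -0.25 after progesterone (adjusted p = 0.056). In the mixed batch alone Impact passed, at -0.22 after vehicle (adjusted p = 0.028) and -0.25 after progesterone (adjusted p = 0.011). In the vehicle-only batch it was at -0.05 (adjusted p = 0.89). Slc38a4, an amino acid transporter gene, was at 0.17 after vehicle (adjusted p = 0.26) and -0.29 after progesterone (adjusted p = 0.19). The groups of Impact after progesterone, 10.8 to 12.7 RPKM in floxed and 9.49 to 10.3 in knockout libraries, did not overlap.

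A few pairs of genes within a cluster varied together. Pairs of genes from different clusters were not correlated, so whether this is particular to genes of a cluster was not tested. For each library the deviation of the log2 value from the mean of its group and batch was taken, and the 29 pairs of tested genes within a cluster were correlated over the 24 libraries, with permutation within group and batch and Benjamini-Hochberg adjustment over the 29 pairs. The median Pearson r was 0.15, from -0.49 to 0.77, and 4 pairs passed for Pearson's r, of which 2 also passed for Spearman's rho. Peg3 and Zim1, which are made from opposite parental copies, had r = 0.69 (p = 0.00045, adjusted 0.013) and rho = 0.70 (p = 0.0011, adjusted 0.016). Without the 2 libraries farthest from the median of Peg3 their r was 0.70, and it was 0.53 in the mixed and 0.83 in the vehicle-only batch. The part of adipose tissue, whose markers differed widely between libraries, in this correlation was not tested. Dlk1 and Mirg, again from opposite copies, had r = 0.77 (p = 0.0015, adjusted 0.021) and rho = 0.81 (p = 0.0011, adjusted 0.016). Their r was 0.79 without the 2 farthest libraries, 0.88 in the mixed and 0.71 in the vehicle-only batch.

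Igf2r and Airn had r = 0.75 (permutation p = 0.0035, adjusted 0.034) and rho = 0.60 (p = 0.0067, adjusted 0.055), with r = 0.59 without the 2 farthest libraries, 0.75 in the mixed and 0.73 in the vehicle-only batch. Rian and Mirg had r = 0.71 (permutation p = 0.0061, adjusted 0.045) and rho = 0.66 (p = 0.013, adjusted 0.055), with r = 0.67 without the 2 farthest libraries, 0.83 in the mixed and 0.57 in the vehicle-only batch. Igf2r and Airn share overlapping sequence, and all values of a library share its depth and cell makeup. Peg10 and Sgce, whose starts are adjacent, had r = -0.26 (adjusted permutation p = 0.59).

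**Figure D5:**
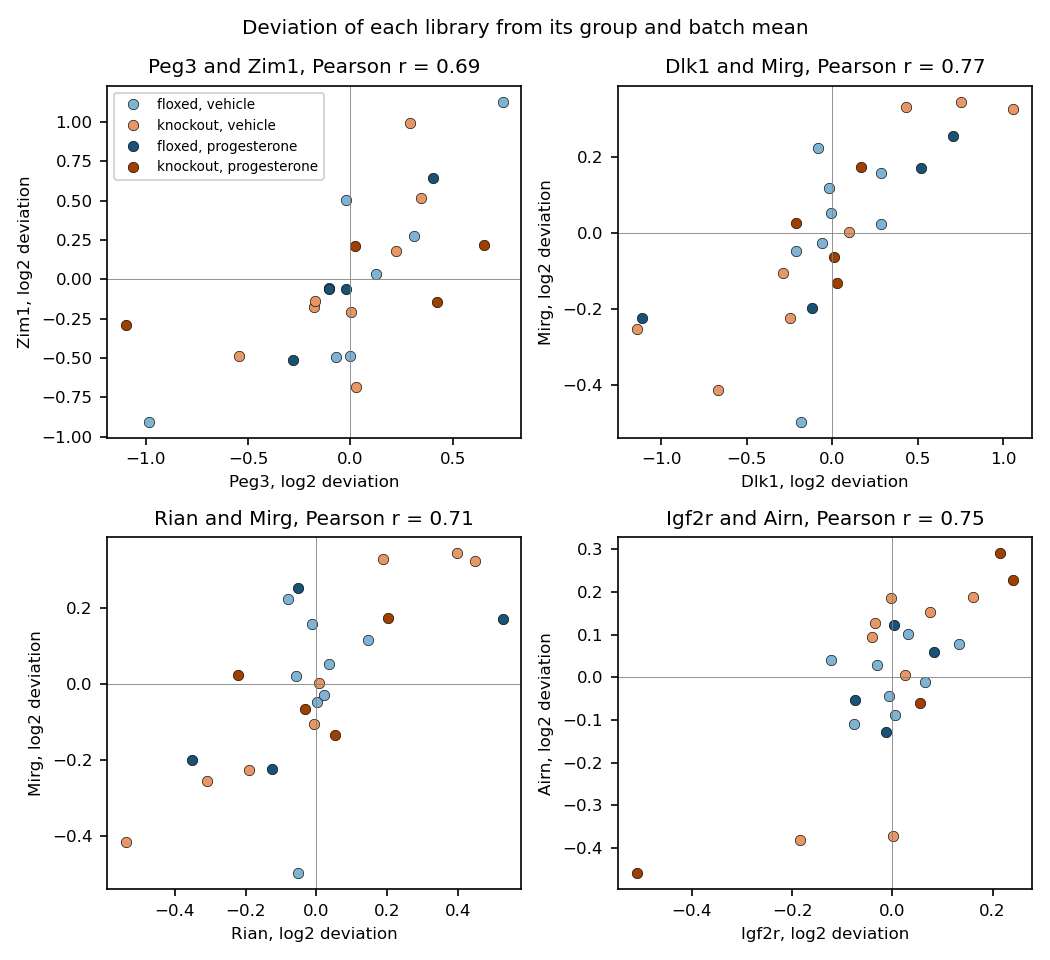
Log2 deviation of each of the 24 libraries from the mean of its group and batch, for the 4 pairs of imprinted genes whose Pearson r passed. Colours mark the groups, and libraries of all groups spread along a rising diagonal, with 1 knockout progesterone library far to the lower left for Igf2r and Airn.

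Genes that set or read imprints were compared as a list of 20, of which 17 were tested. Under vehicle 1 was higher in the knockout, beside 13.1% called higher over the table. This was Zfp57, whose protein binds the motif shown in the windows above. Zfp57 had 2.69 to 3.66 RPKM in floxed and 3.69 to 4.87 in knockout libraries (log2 fold change 0.34, SE 0.077, adjusted p = 0.0021). These groups did not overlap. None of the 17 was called between genotypes after progesterone, beside 12.3% called higher and 7.06% lower over the table. In that comparison 1 had an unadjusted p below 0.05, for which the share over the table was not taken. With progesterone 15.1% of the table was called lower in the floxed and 4.66% in the knockout uterus. Progesterone lowered Dnmt3a, a DNA methyltransferase gene, in both genotypes (-0.41 in each, adjusted p = 0.0099 in floxed and 0.023 in knockout uteri), the demethylase gene Tet1 in the floxed uterus (-0.60) and the maintenance methyltransferase gene Dnmt1 in the knockout (-0.89, adjusted p = 0.036). Dnmt1 is also a gene of dividing cells, and the 5 markers of dividing cells summed to 24.5 to 153 RPKM in knockout vehicle and 33.1 to 129 in knockout progesterone libraries. Their part in the fall of Dnmt1 was not tested.

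Of the 36 further imprinted genes 33 were in the table and 24 were tested. Beside 13.1% higher and 11.5% lower over the table, under vehicle 2 were higher in the knockout (Tnfrsf23, Tfpi2) and 8 were lower (Kcnq1, Cobl, Klhdc10, Tnfrsf22, Begain, Jade1, Atp10a, Peg13). The 3 with the smallest adjusted p were Kcnq1, Cobl at -0.85 (adjusted p = 0.00082) and Klhdc10 at -0.30 (adjusted p = 0.0018). After progesterone 2 were higher (Tnfrsf23, Slc22a3) and 3 lower (Atp10a, Jade1, Klhdc10), beside 12.3% and 7.06% over the table. Begain, the neighbour of Dlk1, was at -0.47 under vehicle (adjusted p = 0.0084), which is the direction of Meg3 and Rian. Peg13, a noncoding RNA within Trappc9 on the same strand, was at -0.35 (adjusted p = 0.041), while Trappc9 itself was at -0.15 (adjusted p = 0.14). Trappc9 was at -0.23 in the mixed batch alone (adjusted p = 0.045) and at -0.07 in the vehicle-only batch (adjusted p = 0.86). With progesterone in the floxed uterus it was at -0.25 in the mixed batch alone (adjusted p = 0.023). Progesterone moved 1 up (Atp10a) and 2 down (Slc22a3, Osbpl5) in the floxed uterus, beside 7.84% and 15.1%, and 1 up (Kcnq1) and 1 down (Slc22a3) in the knockout, beside 4.00% and 4.66%.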

How the data were processed

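RNA of 24 mouse uterus libraries was analysed. The values deposited by the authors are RPKM per gene after a batch correction, treated here as a score because it is neither plain RPKM nor counts: 6.66% of its values lie below 0, and vehicle means of both batches are equal for 13669 of 13669 genes with a mean above 1 (relative tolerance 0.0001), so a constant per gene and batch was added. TopHat, Partek and cutadapt 2.7 with build mm10 are named in the submitters' processing notes. No source used here says how reads were counted (tool, annotation, strand) or which tool made the correction. The test had been designed for uncorrected RPKM and was not changed.

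Values below 0 were set to 0 and log2(RPKM + 0.5) was fitted for the 14284 genes that reached 1 RPKM in 4 or more libraries, with 4 groups and a batch term (R 4.3.3 with limma 3.58.1, a robust eBayes fit with a mean-variance trend, 19 residual degrees of freedom). The pseudocount lowers fold changes of low genes. Two-sided p-values were adjusted over the whole set of tested genes (Benjamini-Hochberg, threshold 0.05), and imprinted genes were read off that fit. The fit was tested on simulated data. Coordinates are from GENCODE M21 (GRCm38), which matched all 41 genes. Correlations used 100000 permutations.

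Members and gene lists were chosen with earlier results of these data known. Genes called in any comparison, or with a group mean of at least 10 RPKM, are given with values, and others by range. The labels do not say that libraries came from separate animals, so p-values measure the spread between these libraries, which may be technical. Vehicle libraries numbered alike in both batches (1a with 1b, 11a with 11b) were no closer than the other pairs across batches (median absolute log2 difference 0.183 and 0.143, other pairs 0.106 to 0.281) and were kept apart. Alternatives were another pseudocount, filter, scale, normalization and batch handling, library weights, a replicate block, and leaving out libraries.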

Additional observations from a re-analysis of the deposited data

Results flagged for a closer look

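Within groups of 4 or 8 libraries, 9 of 124 sets of values of the tested imprinted genes had 1 library far from the others, where chance flags about 1 in 20. Knockout progesterone 8 was high for H13 (14.7 RPKM, the next 13.3) and Gnas (80.2, the next 62.6) and low for Ube3a (7.25, the next 10.3), and it is 1 of the 5 libraries with oviduct or squamous markers. Floxed progesterone 7, another of these, was high for Slc22a18 (4.84, the next 2.42), and floxed vehicle 12 was low for the same gene (2.29, the next 3.04). Knockout vehicle 11a was high for Trappc9 (7.15, the next 5.74) and Impact (13.2, the next 10.5). Floxed vehicle 1a was low for Trappc9 (4.90, the next 6.15) and Mirg (1.44, the next 2.35).

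The response of Grb10 to progesterone differed between the genotypes by a test of the difference itself, at -0.49 on the log2 scale (limma, adjusted p = 0.013).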

How the results depend on the processing

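Over the 31 tested genes and 5 comparisons, no estimate that was called changed direction under the 12 alternatives or on leaving out each of the 24 libraries in turn. Of 5416 such values, 111 lost and 114 gained a call. Shares called over all tested genes under these alternatives are not given here. The counts that follow therefore do not set the imprinted genes apart from the table. Under vehicle the 7 calls became 2 in the vehicle-only batch alone and 18 with library weights. After progesterone the 3 calls between genotypes became 1 with a filter at 5 RPKM, 15 with weights and 1 with the replicate block. The 8 calls of the floxed response became 17 with weights and 5 with the replicate block. The 5 calls of the knockout response became 16 with weights, 1 with the replicate block and 3 without the 5 libraries with oviduct or squamous markers. The 1 call of the difference in response became 0 in the mixed batch alone, 5 with weights, 0 with the replicate block and 0 without those 5 libraries. With the replicate block the calls lost under vehicle were those of Asb4, Peg3, Grb10 and Meg3. Between genotypes after progesterone they were those of Snrpn, Ube3a and Grb10. The floxed response lost Peg10, Copg2 and Meg3, and the knockout response lost Peg10, Rian, Igf2r and Airn. Calls gained with the block under vehicle were those of Plagl1 (0.42, adjusted p = 0.019) and Ndn (-0.50, adjusted p = 0.028). Blcap was gained between genotypes after progesterone (-0.63, adjusted p = 0.049). The cause of these changes in calls was not tested. The estimation of library weights stopped before it converged.
Leaving out 1 library gave 6 to 10 calls under vehicle, 1 to 4 between genotypes after progesterone (1 without knockout progesterone 5 or 6 or floxed progesterone 2), 5 to 9 for the floxed response (5 without floxed progesterone 9), 3 to 7 for the knockout response (3 without knockout progesterone 8 or knockout vehicle 11b or 12) and 1 for the difference.
Over 13 pairs of equal number the correlation of deviations from group means was -0.34 to 0.54 (median 0.097), and 6 exceeded 0.1. Over 227 pairs of unequal number it was -0.56 to 0.64 (median -0.0009), and 84 exceeded 0.1. These values do not settle whether libraries of equal number are related. The replicate block joins them by number alone. Quantile normalization moved the split of all calls between genotypes after progesterone from 1758 higher and 1009 lower to 1470 and 1319. The vehicle-only batch is shallower (median estimated depth 49.8 M reads against 72.7 M), and the depth behind a single value is known only as such an estimate.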

Other observations

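The 3 nearest tested genes without imprinting on each side of every cluster, 108 in all, were read off the same fit. Under vehicle 11 of them were called higher and 12 lower in the knockout (21.3% in all), where the whole table had 13.1% higher and 11.5% lower. After progesterone 10 and 9 were called (17.6%), beside 12.3% and 7.06%. With progesterone 11 were higher and 17 lower in the floxed uterus (25.9%), beside 7.84% and 15.1%, and 5 and 8 in the knockout (12%), beside 4.00% and 4.66%. Next to Impact, Lama3, which encodes a laminin chain, fell by 1.03 on the log2 scale in the floxed uterus and was 0.74 higher in the knockout after progesterone, while Impact itself was not called.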
